A study of Mus musculus with 10 samples.

Results

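Eukaryotic initiation factor 3 (eIF3) is the largest of the initiation factors, a complex of many different subunits. The mRNAs of 10 of its subunit genes, Eif3c, Eif3d, Eif3e, Eif3f, Eif3g, Eif3h, Eif3i, Eif3k, Eif3l and Eif3m, were followed here in undifferentiated P19 cells, a mouse embryonal carcinoma line that can be driven to form neurons. The genes were chosen by name, as subunits with and without a 5′-terminal oligopyrimidine (TOP) motif, and their reads were those that aligned to an annotated mRNA and carried the tag PASS for a usable poly(A) measurement. They gave 8527 of the 2042110 reads kept in the series, from 10 of 13272 genes. All cells carried the wild-type genotype and received siRNA by lipofection at 50 nmol, either the scrambled pool (siCtl) or 1 siRNA against Larp1 (siLarp1), and were collected at 24 h, or at 48 h after a second transfection 24 h after the first. Poly(A) RNA was read directly on Nanopore flow cells, 1 read per molecule with its tail length, in 3 libraries per treatment at 24 h and 2 per treatment at 48 h. The libraries carry the numbers 19, 21 and 22 at 24 h and 24 and 25 at 48 h. The labels call them replicates, and the study's methods describe biological replicates pooled by barcode.

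eIF3 sits on the small ribosomal subunit, helps to assemble the preinitiation complex with the initiator tRNA and the other factors, and keeps the subunits apart until a start codon is found. Its core is built from proteins with a PCI domain, a fold of helices also found in the COP9 signalosome and in the lid of the proteasome, and from proteins with an MPN domain; the subunits eIF3d, eIF3g and eIF3i lie outside that core. LARP1 is an RNA-binding protein that binds the cap and the first pyrimidines of TOP mRNAs, and it is known for holding these mRNAs in a stable, untranslated state. The comparison asks what happens to the tails and the levels of the eIF3 mRNAs when LARP1 is depleted.

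The kept reads per library ran from 112720 to 423398, and the eIF3 genes had 446 to 1781 reads per library. Larp1 itself, the target of the siRNA, had 75.9, 84.2 and 85.0 RPM (reads per 1000000 kept reads of a library) in siCtl at 24 h and 33.4, 44.9 and 19.1 RPM in siLarp1; at 48 h it had 169 and 123 against 18.5 and 24.9. It thus stood at 39.7% of the siCtl mean at 24 h and at 14.9% at 48 h, without overlap, although it did not pass the test across all genes (adjusted p = 0.63 and 0.087, limma). Larp1 had only 147 reads over the 10 libraries, so these percents are rough. A deeper reduction at 48 h than at 24 h was not shown (log2 difference between the times -1.23 ± 0.72, adjusted p = 0.97, limma). The study reported less LARP1 protein after the knockdown by Western blot. Of 11 embryonal carcinoma markers searched, 7 had reads in all 10 libraries, led by the pluripotency factor Pou5f1 at 2277 to 3028 RPM. Zfp42 was at 0 in all 10 libraries, Esrrb in 9, Dppa5a in 5 and Fgf4 in 3. Of the 8 neuron markers searched, Stmn2 (151 to 279 RPM) and Tubb3 (26.6 to 81.3 RPM) had reads in every library and made up most of the summed 201 to 372 RPM. The other 6 were at 0 in at least 4 libraries each, and Neurod1 was at 0 in all. The siCtl and siLarp1 libraries of 24 h were sequenced as separate pools, and a difference between the pools and one between the treatments cannot be told apart at that time. At 48 h all 4 libraries shared a pool.

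The 5′ ends of the members are shown because the TOP motif lies at the very start of an mRNA. The study took its TOP mRNAs by gene symbol from a curated list of known ones. Eif3e, Eif3f and Eif3h were on that list and the other 7 members were not. Each line gives 30 bases of the GENCODE vM21 transcript (GRCm38) with the most reads, 5′ to 3′, placed so that up to 24 bases lie before the most frequent first base of its reads; capitals mark each run of a C followed by at least 4 C or T. The windows were searched on the transcript strand only.
Eif3c: gtctcacctgctcagagggactcggcagct
Eif3d: ccctgcgcgcgcatCTTCCCTCCTgccttg
Eif3e: gaacaagcgCTCCTTTCCCCCggcaagatg
Eif3f: CTCTTTCTCggcaagatggCTTCTCCggcc
Eif3g: gCTTCCTgtctttacccgggctgggagctg
Eif3h: gcgcctcacgCTTCTCTTTCTTCCTgtctg
Eif3i: cattgCCTCTCTCCTCgcgtcaccgccagg
Eif3k: CTCTCTTCCggtCCTCTagtgctaagcacc
Eif3l: ttCTTCCgCTCTCTCCCacgggCTTCTgga
Eif3m: cggcaccgCTCTCTTTTCCggtcggcgtgt

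Such a run stood in 9 of the 10 windows, all but that of Eif3c. Only 13 of the 580 Eif3c reads started at their most frequent first base, against 32 of 599 for Eif3d and 335 of 1174 for Eif3f. The place of the Eif3c window is therefore uncertain. The same search found it in 34.9% of the 5069 windows of the genes tested and in all 79 windows of ribosomal protein genes, the classical TOP mRNAs. The longest runs measured 15 bases in Eif3h, 12 in Eif3e, 11 in Eif3i and Eif3m, 10 in Eif3d, 9 in Eif3f, Eif3k and Eif3l and 6 in Eif3g. The most frequent first base of the reads lay 10 to 24 bases after the start of the longest run, and direct RNA reads are known to stop short of the cap, so the true start of the mRNA was not measured. The TOP list of the study and the presence of a run in these windows therefore divided the members differently, since 6 of the 7 members off the list carried a run as well.

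The windows lie in the first exon of each gene, on GRCm38, the build of the deposited table. Eif3e (chr15:43282690-43282719, minus strand) and Eif3f (chr7:108934417-108934446, plus strand) have annotated 5′ UTRs of only 27 and 15 bases, so that their windows end in coding sequence, whereas the window of Eif3h (chr15:51865467-51865496, minus strand) lies in a 5′ UTR of 66 bases. Those of Eif3d (chr15:77970762-77970791, minus), Eif3g (chr9:20898584-20898613, minus), Eif3k (chr7:28981781-28981810, minus), Eif3l (chr15:79075219-79075248, plus), Eif3m (chr2:105017026-105017055, minus) and Eif3c (chr7:126566354-126566383, minus) lie in 5′ UTRs of 60 to 141 bases. That of Eif3i (chr4:129600597-129600626, minus) lies in a 5′ UTR of 52 bases.

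Nearly all reads of a member fell on 1 transcript. The exceptions were Eif3l, with 128 of 813 reads on a transcript with a retained intron, Eif3k, with 52 of 930 on a second coding transcript, and Eif3m, with 44 of 861 on a retained-intron transcript. All 128 and all 44 reads on the retained-intron transcripts had a mapping quality under 10, which means that the aligner could not place them on 1 transcript with confidence, so no intron retention is read from them. The same held for 47 of the 52 Eif3k reads on the second coding transcript, so no second Eif3k isoform is read from them. A second 3′ end was tallied for Eif3c alone. Its share of reads within 20 bases of the most frequent last base was the lowest, 82.1%. That share was 89.4% for Eif3f and 97.4% to 99.8% for the other members. Most Eif3c reads ended near base 2927 of 3383, and 83 of 580 (14.3%) ended beyond base 3200. The share of these long ends was 5.26% to 17.9% in the libraries at 24 h, 24.0% and 15.7% in siCtl at 48 h and 22.5% and 16.3% in siLarp1 at 48 h, so the groups overlapped. Eif3c was also the member read least completely, with 24.3% of its reads starting in the first 100 nt, against 55.8% to 85.5% for the other members.

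Because each read is a molecule, RPM compare mRNA levels between genes without division by length. On this scale the members spanned about the same range as one another, from a mean over the 10 libraries of 283 for Eif3d to 576 for Eif3f. Eif3f, a subunit with an MPN domain, was the most abundant member in 8 of the 10 libraries and Eif3h, its MPN partner, in the other 2. The members of the next rank, Eif3k (456), Eif3e (435), Eif3i (421), Eif3m (407) and Eif3l (399), exchanged places from library to library: each exceeded the next in only 6 or 7 of 10. Eif3g (334), which encodes an RNA-binding subunit, followed. Eif3c (288), which encodes a large core subunit, and Eif3d (283) ended the order. Eif3c exceeded Eif3d in only 4 of 10 libraries.

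Taken over all 10 members, a smaller share of the reads came from eIF3 mRNAs in the siLarp1 libraries. The summed level was 4352, 4392 and 4206 RPM in siCtl at 24 h and 3721, 3970 and 3897 in siLarp1. At 48 h it was 4294 and 4572 against 3671 and 4048. The siLarp1 libraries were the lower ones at both times and did not overlap with siCtl. RPM are shares of a library's kept reads. In these bulk libraries fewer molecules per cell, fewer cells with the mRNA and more molecules of other mRNAs cannot be told apart. The sum is a description with no test, because the members were chosen by name with earlier results of these data known.

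Single members did not pass the test. Abundance was compared with limma voom over 5858 genes, and 0 of 10 members had an adjusted p under 0.05 at either time, beside 0.0% of all genes in either direction at 24 h and 0.0171% in each direction at 48 h; at an unadjusted p under 0.05 the same test gave 1 member, lower, at each time, and 0 higher. Of all genes, 3.89% were higher and 1.93% lower by that rule at 24 h, and 2.68% and 2.25% at 48 h. The log2 difference was below 0 for 8 of 10 members at 24 h and for 8 of 10 at 48 h, with a median of -0.14 and -0.27, where the median over all genes tested was 0.02 and 0.05. The median over the members moved to -0.22 at 24 h without siLarp1 library 21 and to -0.06 at 48 h without siLarp1 library 24. The groups did not overlap, with siLarp1 lower, for 4 of 10 members at 24 h and 3 of 10 at 48 h. Over all genes that share was 6.06% and 15%, and over the 563 genes with at least 500 reads, as each member has, 8.88% and 23.4%. For the 79 ribosomal protein genes the median log2 difference was -0.004 at 24 h and -0.14 at 48 h, with 43 and 66 of the 79 below 0. Groups of these genes did not overlap, with siLarp1 lower, for 5 at 24 h and 49 at 48 h, and with siLarp1 higher for 9 and 5. A lower level at 48 h was thus not particular to the eIF3 members.

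**Figure D1:**
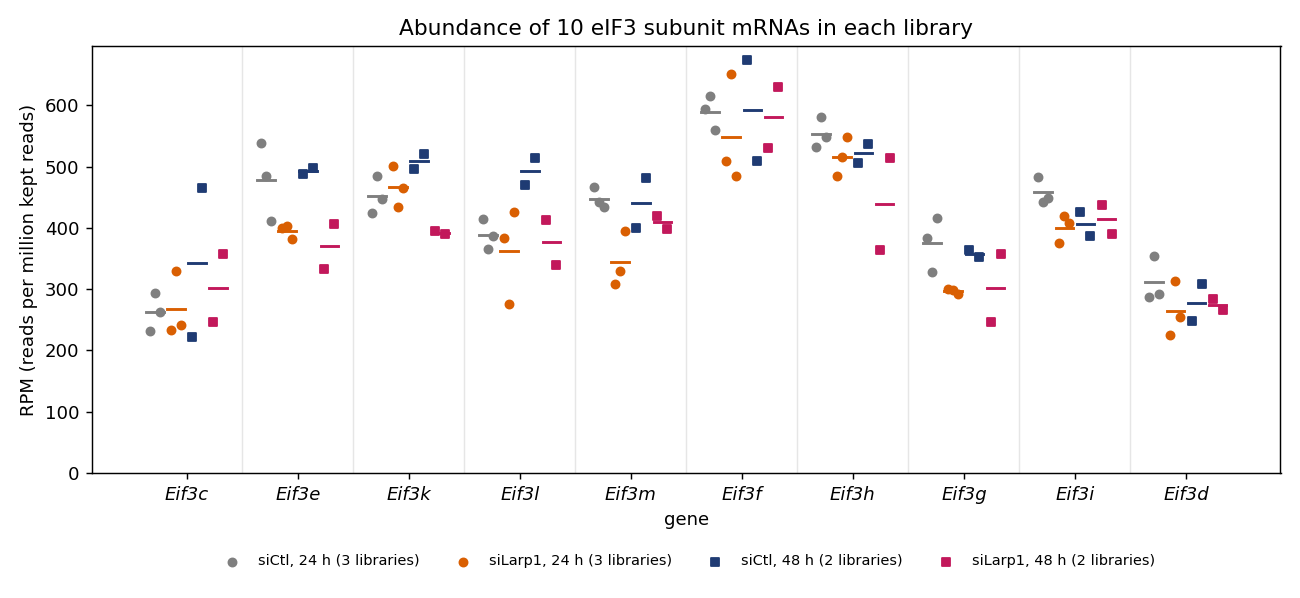
Level in RPM (y axis) of each member (x axis) in each of the 10 libraries, with a point per library and a bar at the group mean. The siLarp1 libraries of Eif3e lie below its siCtl libraries at both times, while Eif3f, the most abundant member on average, has overlapping groups.

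The PCI subunits hold the core together, and Eif3e, one of them, also serves as a docking site for other proteins on the complex. Eif3e had 538, 485 and 411 RPM in siCtl and 400.5, 404 and 382 in siLarp1 at 24 h. At 48 h it had 488 and 498 against 333 and 406. Every siLarp1 library was below every siCtl library of its time, and the exact permutation test over both times (120 arrangements, two-sided) gave p = 0.0167, the smallest value that these libraries allow. That p is 1 of 40 such tests, for 10 members and 4 measures, of which 3 reached the minimum; the same separation at both times was found in 1.23% of all genes and in 3.37% of those with at least 500 reads. In limma the log2 difference of Eif3e was -0.24 ± 0.15 (SE) at 24 h and -0.44 ± 0.21 at 48 h (adjusted p = 0.89 and 0.94).

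Eif3m, another PCI subunit, was separated at 24 h only. It had 466, 442 and 435 RPM in siCtl and 309, 329 and 395 in siLarp1 at 24 h, a log2 difference of -0.36 ± 0.15 (adjusted p = 0.78, limma), and 399 and 481 against 419.6 and 398 at 48 h. Eif3k and Eif3l, which form a pair at the edge of the core and are absent from some simpler eIF3 complexes, were separated at 48 h only. Eif3k had 497 and 520.4 against 395 and 389.9 RPM at 48 h (log2 difference -0.38 ± 0.20, adjusted p = 0.94), and a siLarp1 mean of 103% of siCtl at 24 h. Eif3l had 470.2 and 515 against 413 and 340.1 at 48 h (log2 difference -0.38 ± 0.21, adjusted p = 0.94). The interaction of time and treatment, which tests whether the differences at 24 h and 48 h differ from each other, passed for no member in abundance (lowest adjusted p = 0.97), so a difference between the times was not shown.

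Eif3g and Eif3i form a module at the entry of the mRNA channel with eIF3b. Eif3g had 383, 328 and 416 RPM in siCtl at 24 h and 300.3, 299 and 293 in siLarp1, without overlap, with a log2 difference of -0.33 ± 0.17 (adjusted p = 0.85, limma). At 48 h its groups overlapped, with 364 and 353 against 247 and 357. Eif3i had 483, 442 and 449 against 375, 419 and 408 at 24 h, also without overlap, and 426 and 386 against 438 and 389.9 at 48 h. The MPN subunits Eif3f and Eif3h, the PCI subunit Eif3c and the cap-binding subunit Eif3d had groups that overlapped at both times, with siLarp1 means of 84.2% to 102% of siCtl. Eif3c varied most, with 222 and 464 RPM in the siCtl libraries at 48 h.

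The tails of the members had medians between 82.2 nt (Eif3g) and 108 nt (Eif3c) when the reads of all libraries were joined. Eif3c had the longest median in 5 of 10 libraries and Eif3g the shortest in 7. Between them the means over libraries ran from 99.9 nt for Eif3d down to 90.2 nt for Eif3f in small steps, and neighbours in that order kept their places in only 5 to 7 of the 10 libraries. Eif3g also had the largest share of reads with a tail under 30 nt, 58 of 709 (8.18%), which is rank 3 from the top among the 563 genes with at least 500 reads; of these 709 reads, 400 came from siCtl at 24 h. Library by library, Eif3g had the highest share of the members in 5 of 10. The other members had 2.38% to 4.68% over all libraries joined. A further 10.9% of the Eif3g reads had tails of 30 to 40 nt, against 3.32% to 6.27% for the other members. In the siCtl libraries alone, the Eif3g share under 30 nt ran up to 17.1%.

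**Figure D2:**
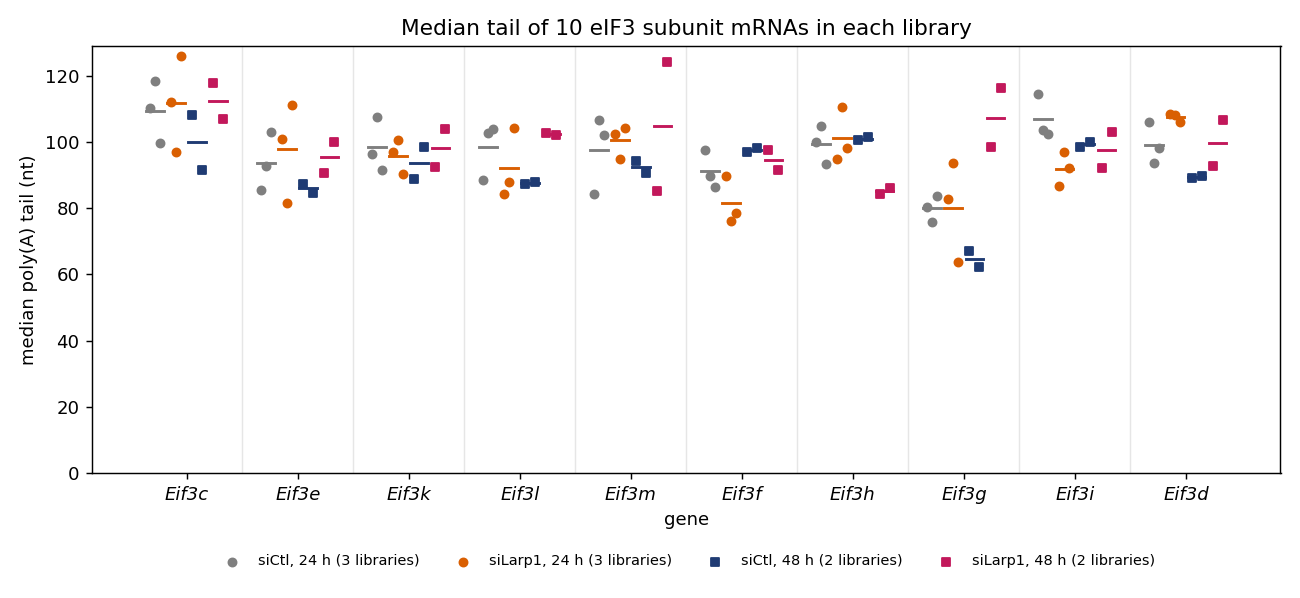
Median poly(A) tail in nt (y axis) of each member (x axis), a point per library and a bar at the group mean. Eif3g is the member whose siLarp1 and siCtl libraries stand farthest apart at 48 h, at 98.4 and 116 nt against 67.2 and 62.2 nt.

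The median tail was compared with limma over 5125 genes. No member passed at either time (0 of 10, beside 0.0% of genes higher and 0.0195% lower at 24 h and 0.0% in either direction at 48 h); at an unadjusted p under 0.05 limma gave 1 member lower at 24 h (Eif3i) and 1 higher at 48 h (Eif3g), and no other. By that rule 3.75% of all genes were higher and 2.3% lower at 24 h, and 3.43% and 2.07% at 48 h. The median difference over the members was 0.20 nt at 24 h and 9.23 nt at 48 h, where that over all genes tested was 2.22 and 2.40 nt. Without siLarp1 library 25 the median over the members at 48 h was 1.69 nt and that over all genes -0.78 nt, and at 24 h leaving out 1 library gave -2.59 to 2.82 nt for the members. Groups without overlap were found at 48 h for 4 members with longer tails in siLarp1 (Eif3d, Eif3e, Eif3g and Eif3l) and 1 with shorter (Eif3h); over all genes the shares were 19.5% and 14.2%, and over the genes with at least 500 reads 23.8% and 13.0%. At 24 h 1 member was separated with longer tails (Eif3d) and 1 with shorter (Eif3i), beside 6.54% and 5.09% of all genes and 5.33% and 9.59% of those with at least 500 reads.

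Eif3g gave the largest difference. Its median tail was 80.3, 76.0 and 83.7 nt in siCtl and 82.7, 93.7 and 63.7 nt in siLarp1 at 24 h, where the groups overlapped. At 48 h it was 67.2 and 62.2 nt in siCtl and 98.4 and 116 nt in siLarp1. The limma difference was -1.41 ± 6.61 nt at 24 h and 43.6 ± 9.40 nt at 48 h (SE; 95% confidence interval 24.6 to 62.5 nt), and its p at 48 h was the smallest of the 5125 genes, yet the adjusted p was 0.17. The exact permutation test on 2 against 2 libraries cannot go below p = 0.333, which is what Eif3g gave. Over 17 alternative fits of all genes the difference lay between 34.3 and 52.2 nt. With a fit on the mean of the log2 tail lengths also counted, the adjusted p lay between 0.013 and 0.79. The adjusted p was under 0.05 in 3 of these fits, among them with each time point fitted alone (0.042) and without siCtl library 21 of 24 h (0.028). The difference between the times was 45 ± 11.5 nt (adjusted p = 0.54), rank 3 by p among all genes.

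The Eif3g groups differed at 48 h over most of the tail range. With the libraries joined, 48.1% of the 104 siCtl reads at 48 h had tails of at most 60 nt, against 18.1% of the 83 siLarp1 reads; at 24 h the shares were 34.5% of 400 and 41.0% of 122. At 48 h 70.2% of the siCtl and 39.8% of the siLarp1 reads had at most 100 nt, and 74.0% and 63.9% at most 120 nt, so that the lines drew together between these lengths, where the siLarp1 reads were the more frequent. The share under 30 nt was 17.1% and 7.94% in siCtl and 5.0% and 2.33% in siLarp1 at 48 h, and that of 30 to 90 nt was 46.3% and 55.6% against 40% and 23.3%. Each library held only 40 to 63 Eif3g reads, so 7, 5, 2 and 1 reads stand behind the shares under 30 nt. In the larger of the 2 runs of the 48 h pool the medians were 76.0 and 59.8 nt in siCtl and 103 and 117 nt in siLarp1. In the smaller run, with 11 to 14 reads per library, they were 58.9 and 84.2 against 72.3 and 115 nt and overlapped. Among reads that started in the first 100 nt the medians were 71.0 and 59.0 against 94.8 and 105 nt. The split by run and by completeness of the read was chosen after the values were seen. The Eif3g reads ended at the same annotated 3′ end, with 99.6% within 20 bases of the most frequent last base.

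**Figure D3:**
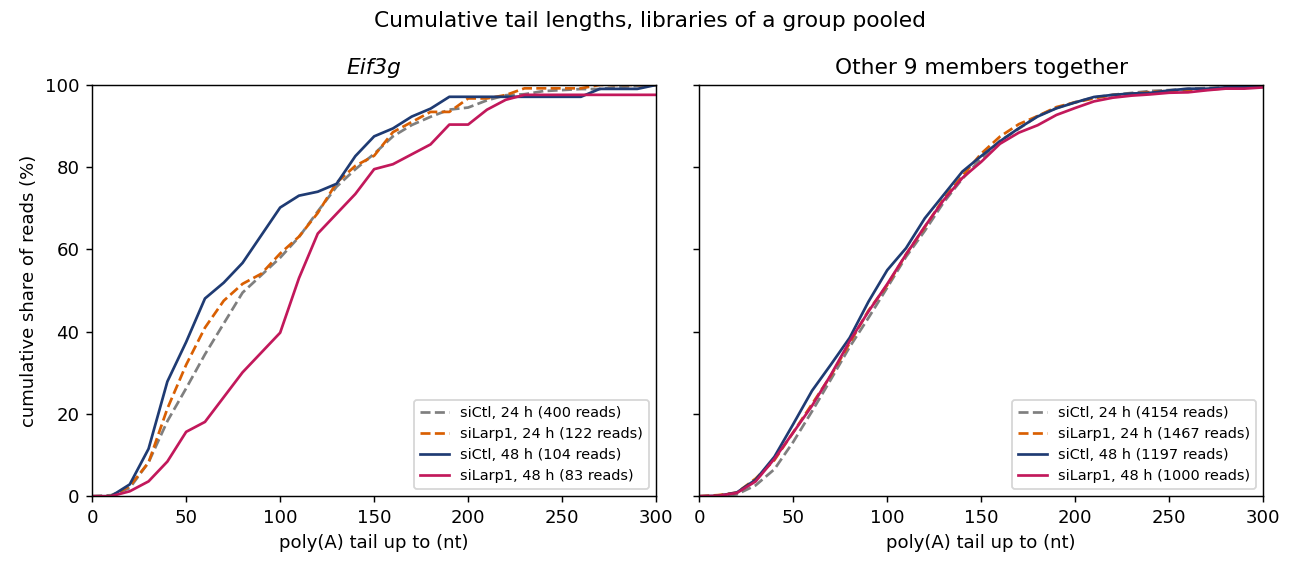
Cumulative share of reads in percent (y axis) with a poly(A) tail up to a given length in nt (x axis), for Eif3g (left) and the other 9 members together (right), with the libraries of each group joined. For Eif3g the siLarp1 line at 48 h runs below the siCtl line, 18.1% against 48.1% at 60 nt, whereas for the other members the lines lie close together, 22% against 25.6%.

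The MPN subunit Eif3h had the opposite order at 48 h, with medians of 101 and 101 nt in siCtl and 84.4 and 86.1 nt in siLarp1, a difference of -15.9 ± 8.07 nt (adjusted p = 0.90, limma). At 24 h its groups overlapped, at 100.1, 105 and 93.4 nt against 95, 110.5 and 98.2 nt. Eif3i was separated at 24 h, with 115, 104 and 102 nt in siCtl and 86.8, 96.9 and 92.1 nt in siLarp1 (-14.0 ± 5.94 nt, adjusted p = 0.78, limma). It overlapped at 48 h, with 98.6 and 100.1 against 92.2 and 103 nt. In the largest siLarp1 run of 24 h the Eif3i medians were 82.4, 87.9 and 96.2 nt. In the smaller siLarp1 runs they were 84.2 to 121 nt, from 1 to 15 reads each. The siCtl runs of 24 h gave 91.7 to 119 nt.

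Eif3d, the subunit that can bind the cap of certain mRNAs, had longer medians in siLarp1 at both times. They were 106, 93.8 and 98.1 nt in siCtl and 108, 108 and 106 nt in siLarp1 at 24 h, and 89.1 and 89.7 against 92.8 and 107 nt at 48 h. The groups did not overlap at either time (exact permutation p = 0.0167 over both, the smallest value possible), a separation found in 1.35% of all genes. The size of the difference was 9.00 ± 7.13 nt at 24 h and 9.01 ± 10.2 nt at 48 h in limma (adjusted p = 0.94 and 0.99). The lowest siLarp1 library and the highest siCtl library of 24 h lay close together, at 106 nt each after rounding.

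The 5 PCI subunits all had estimates above 0 at 48 h, from 2.56 nt for Eif3k to 16.7 nt for Eif3c, but their groups did not all separate. Estimates above 0 at 48 h were also found for 2817 of the 5125 genes. They were found for 16 of 19 other 43S factors and 10 of 17 genes of the COP9 signalosome and proteasome lid. Over all kept reads the median was 103.1 nt in siLarp1 library 25, 97.7 nt in siLarp1 library 24 and 97.1 and 98.6 nt in siCtl. Eif3l had 87.2 and 87.9 nt in siCtl against 103 and 102 nt in siLarp1 (14.9 ± 8.55 nt, adjusted p = 0.90, limma). Eif3e had 87.4 and 84.8 nt against 90.8 and 100.1 nt. Eif3m showed how far 2 libraries can differ, with 85.4 and 124 nt in siLarp1 around 94.2 and 90.8 nt in siCtl. At 24 h the estimates of the PCI subunits lay between -5.04 and 4.34 nt.

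**Figure D4:**
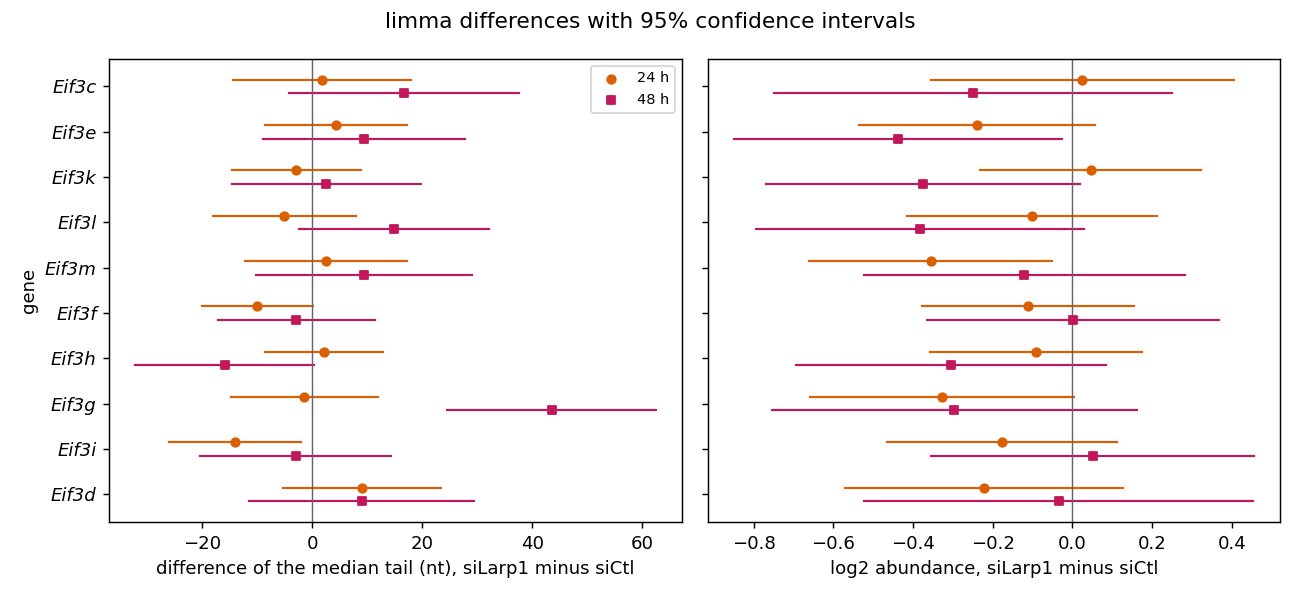
Differences between siLarp1 and siCtl from limma with 95% confidence intervals, for the median tail in nt (left, x axis) and the log2 abundance (right, x axis), per member (y axis) at 24 h (circles) and 48 h (squares). The interval of the Eif3g tail at 48 h, 24.6 to 62.5 nt, is the one that lies farthest from 0, and most abundance estimates lie left of 0.

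Tails under 30 nt, a class that the study set, were compared as a percent of reads. In limma 0 of 10 members passed at 24 h or 48 h, beside 0.0% of the 5125 genes at 24 h and 0.0195% higher and 0.0% lower at 48 h; at an unadjusted p under 0.05 only Eif3l was called, lower at 48 h, where 3.49% of all genes were lower and 5.21% higher by that rule, beside 1.4% and 3.14% at 24 h. The estimates were above 0 for 8 of 10 members at 24 h (median 1.33 percentage points) and for 5 of 10 at 48 h (median -0.06), where the median over all genes was 0 at both times and that over the 79 ribosomal protein genes was 1.35 and 1.84. With a limit of 25 nt in place of 30 nt it was 5 of 10 members at 24 h (median 0.045). Without siCtl library 22 or siLarp1 library 21 it was 6 of 10, and without siLarp1 library 22 the median was 2.23. Of the 5125 genes, 1849 were above 0 and 2079 below at 24 h, and the rest were at 0. In log2 odds, a quasi-binomial model gave medians of 0.58 for the members and 0.46 for all genes at 24 h. With 0.5 added to the counts they were 0.78 and 0.79. Of all kept reads of a library, 2.15% to 2.42% had such tails in siCtl and 2.63% to 3.22% in siLarp1 at 24 h. At 48 h these shares were 2.96% and 2.82% against 4.20% and 3.37%. Groups without overlap were found for 2 members higher and 0 lower at 24 h, and for 2 higher and 4 lower at 48 h. Over all genes the shares were 2.46% and 2.95% at 24 h and 8.29% and 4.49% at 48 h; over the genes with at least 500 reads they were 16.5% and 1.42% at 24 h and 33.2% and 9.59% at 48 h.

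Eif3h was the only member whose groups did not overlap at both times. Its short tails were more frequent in siLarp1, as were, on average and with overlap at 1 time or both, those of Eif3c, Eif3d, Eif3f and Eif3i. The share was 1.30%, 0.50% and 2.59% in siCtl and 3.45%, 2.90% and 3.49% in siLarp1 at 24 h. At 48 h it was 3.51% and 3.12% against 6.78% and 6.45%. No library overlapped with the other treatment of its time (exact permutation p = 0.0167 over both times, the smallest value possible), as was the case for 1.03% of all genes and 8.7% of those with at least 500 reads. The counts behind these shares were 1 to 6 reads per library, and the exact (Clopper-Pearson) 95% interval of a single library was wide, 1.88% to 16.5% for the highest share. The limma difference was 1.75 ± 0.96 percentage points at 24 h and 3.34 ± 1.46 at 48 h (adjusted p = 1.00 and 0.58). The groups overlapped within each run of the 48 h pool. The shares were 4.65% and 1.32% in siCtl and 10.0% and 4.08% in siLarp1 in the larger run. They were 0 and 10.0% against 0 and 15.4% in the smaller, from 13 to 20 reads each. At 24 h the largest siLarp1 run gave 4.55%, 4.08% and 4.69%, and the largest siCtl run 1.92%, 1.47% and 2.82%. In the smaller siLarp1 runs of 24 h the shares were 0, from 6 to 12 reads per library and run. Those of the smaller siCtl runs were 0 to 4.11%.

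**Figure D5:**
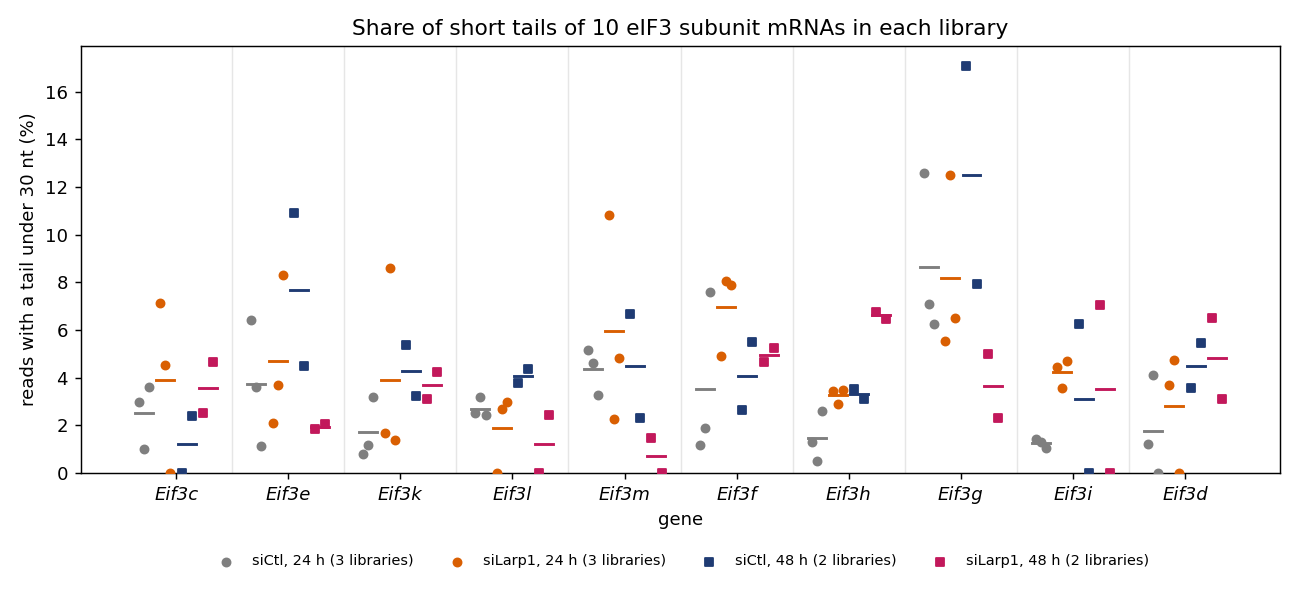
Share of reads in percent with a tail under 30 nt (y axis) of each member (x axis), a point per library and a bar at the group mean. The siLarp1 points of Eif3h lie above its siCtl points at both times, and Eif3g has the highest share of any member and library, 17.1% in a siCtl library at 48 h, but only 5.0% and 2.33% in siLarp1 at 48 h.

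Eif3i was separated at 24 h only, with 1.43%, 1.32% and 1.05% in siCtl and 4.44%, 3.57% and 4.69% in siLarp1. The largest siLarp1 run of 24 h gave 5.41%, 5.41% and 4.88%. Its smaller runs gave 0, from 1 to 15 reads each, except for 6.67% of 15 reads in library 22. At 48 h Eif3i had 6.25% and 0 of 69 reads in siCtl, which allows a share of up to 4.35% (3 reads of the total). In siLarp1 it had 7.04% and 0 of 47 reads, which allows up to 6.38%. The order was the opposite for Eif3e at 48 h, with 10.9% and 4.49% in siCtl and 1.85% and 2.04% in siLarp1. Eif3l had 3.77% and 4.35% in siCtl at 48 h against 0 of 67 reads, which allows up to 4.48%, and 2.44%. Eif3f had 1.16%, 1.89% and 7.59% against 4.92%, 8.05% and 7.89% at 24 h, where siCtl library 22 stood among the siLarp1 libraries. The exact 95% intervals of these shares of 0 reach further, to 5.21% of 69, 7.55% of 47 and 5.36% of 67 reads. Intervals and limits cover counting error only.

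Tails of 30 to 90 nt, the second class of the study, made up 35.3% (Eif3c) to 45.1% (Eif3f) of the reads of a member. In limma 0 of 10 members passed at either time, beside 0.117% of genes higher and 0.0% lower at 24 h and 0.0% in either direction at 48 h; at an unadjusted p under 0.05 it gave 0 members at 24 h and 2 at 48 h, Eif3g and Eif3c, both lower. By that rule 2.01% of all genes were higher and 3.63% lower at 24 h, and 1.56% and 3.94% at 48 h. Groups did not overlap for 1 member higher and 0 lower at 24 h, beside 4.35% and 7.18% of all genes and 7.82% and 8.35% of those with at least 500 reads. At 48 h they did not overlap for 1 member higher and 4 lower, beside 11.5% and 19.3% of all genes and 10.5% and 31.4% of those with at least 500 reads. The difference of Eif3g at 48 h was -20.6 ± 7.66 percentage points and that of Eif3c -14.3 ± 7.23 (adjusted p = 0.82 and 0.89). Eif3i had 31.4%, 37.5% and 37.4% in siCtl and 48.9%, 41.1% and 43.8% in siLarp1 at 24 h, without overlap, and Eif3h 35.1% and 38.5% against 47.5% and 46.8% at 48 h.

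Eif3e, Eif3f and Eif3h, the members on the TOP list of the study, were also joined and set beside the other 7. They had 1664, 1682 and 1519 RPM in siCtl and 1393, 1570.0 and 1414 in siLarp1 at 24 h, which overlapped, and 1668 and 1544 against 1228 and 1551 at 48 h. The other 7 members had 2689, 2710.3 and 2688 against 2328, 2399.9 and 2483 at 24 h and 2626 and 3027 against 2443 and 2497 at 48 h, without overlap at either time. Short tails were 2.90%, 1.90% and 4.04% of the reads of the listed members in siCtl and 3.59%, 5.24% and 6.31% in siLarp1 at 24 h. They were 5.32% and 4.35% against 4.52% and 4.81% at 48 h. For the other 7 members the shares were 3.85%, 3.11% and 2.90% against 4.30%, 5.61% and 3.08% at 24 h and 6.42% and 3.51% against 3.54% and 2.33% at 48 h. Groups overlapped in all these comparisons of short tails, and the difference between the listed and the other members was not tested.

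The subunits outside the 10 were measured with fewer reads. Eif3a, the largest core subunit, had 329 reads in all, Eif3b, the scaffold of the g-i module, 576, and the loosely bound Eif3j1 and Eif3j2 had 236 and 82. None of the 4 passed in any of the 4 measures at either time. The Eif3a share of tails under 30 nt was 0 and 2.56% in siCtl and 13.9% and 5.88% in siLarp1 at 48 h (9.68 ± 3.67 percentage points, adjusted p = 0.51, limma), from 17 to 39 reads a library. Eif3b had 307, 296 and 295 RPM in siCtl and 267, 247 and 210.1 in siLarp1 at 24 h, without overlap, and 417 and 213 against 308 and 224 at 48 h.

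Of the other initiation factors of the 43S complex, 19 of 19 listed genes were tested and 0 passed in any measure. The most read was Eif1, which guards start codon choice: at 24 h tails of 30 to 90 nt made up 31.2% ± 1.08 of its siCtl reads and 39.6% ± 2.86 of its siLarp1 reads (SD, n = 3 libraries each), and the limma difference of 8.31 ± 2.36 percentage points had an adjusted p of 0.24. Its limma difference at 48 h was -3.53 ± 3.71 (adjusted p = 0.93). Eif2s2, the beta subunit of eIF2, had 6.35 ± 2.84 percentage points more tails under 30 nt at 48 h (adjusted p = 0.60, limma). At 24 h its shares under 30 nt were alike, 5.85% ± 0.95 in siCtl and 6.08% ± 4.49 in siLarp1 (SD, n = 3 libraries each). Of the eIF4 list, which holds the cap-binding factors and the poly(A)-binding protein Pabpc1, 11 of 12 genes were tested and 0 passed; the helicase gene Eif4a1 had a log2 abundance difference of -0.18 ± 0.07 at 24 h (adjusted p = 0.76) and 0.06 ± 0.10 at 48 h, and Pabpc1 one of 0.13 ± 0.12 and 0.12 ± 0.15. The median log2 abundance difference was -0.07 and -0.04 for the 43S list and 0.02 and 0.12 for the eIF4 list at 24 h and 48 h. For the 79 ribosomal protein genes it was -0.004 and -0.14.

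The relatives of the eIF3 core, 17 subunits of the COP9 signalosome and the proteasome lid that share its PCI and MPN domains, were all tested and 0 passed in any measure. Their median differences were -0.10 and -0.02 on the log2 scale in abundance and 10.5 and 2.99 nt in the median tail at 24 h and 48 h. Psmd12, a PCI subunit of the lid, had a median tail difference of 20.0 ± 7.44 nt at 24 h and 2.99 ± 10.7 nt at 48 h (adjusted p = 0.70 and 1.00, limma), and Psmd3 one of -6.77 ± 7.12 and 8.73 ± 9.87 nt.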

How the data were processed

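The deposited table holds 1 line per alignment of a Nanopore direct RNA read. Per the labels and the study's methods, poly(A) RNA was barcoded (SQK-RNA002 kit), base-called with Guppy, demultiplexed with Deeplexicon, aligned by minimap2 (2.20 in the submitters' processing notes) to mm10 transcripts of GENCODE, and its tails estimated with Nanopolish. The deposited tail lengths are in nt, the barcode confidence is a fraction, and the mapping quality is a score given by the aligner; no table of counts was used, so reads were tallied here. Of 2652217 alignments, 81.4% carried PASS. Mitochondrial transcripts and pseudogenes were left out.

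Per gene and library, the percent of reads with tails under 30 nt and of 30 to 90 nt, the median tail and the reads were computed. limma (3.58.1, R 4.3.3) compared siLarp1 with siCtl in 1 fit of 4 groups, on percents and medians weighted by reads, and by voom for abundance, for genes with at least 30 reads (tails: also at least 1 in each library), with Benjamini-Hochberg adjustment over all genes. Exact permutation tests, two-sided, were run on members within time points. For the Larp1 knockdown the study compared fold changes of TOP and non-TOP transcripts with a Wilcoxon test. Its two-sample test on percents was shown for differentiation. The tests here were checked on simulated data with changes added to 200 genes of at least 500 reads. Changes of 10 percentage points under 30 nt were recovered in 50.5% of them at 24 h and 11% at 48 h, and 2-fold abundance changes in 62.5% and 18.5%. Of 5-point changes 0.5% were recovered at each time, so a member that did not pass is not shown to be unchanged. The 200 genes were drawn from all those with at least 500 reads, which reach 20341 reads for Rplp1. The members had 580 to 1174 reads, so recovery for them may be lower. The simulation held no difference between pools or runs. The members and lists were chosen with earlier results of these data known. Named genes were the 10 members, Larp1, the other eIF3 subunits and, of each list, the genes that passed or else the 2 with the most reads. The table names its libraries by number, which was not matched to the replicate numbers of the labels. Same-numbered siCtl and siLarp1 libraries deviated together only weakly (correlation 0.044 to 0.251 in abundance), so they were not treated as pairs.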

Additional observations from a re-analysis of the deposited data

How the results depend on the processing

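For the members, 80 differences (10 members, 4 measures, 2 times) were recomputed under the alternatives, 1580 values in all. Of these, 3 passed, all for the Eif3g median tail at 48 h: each time point fitted alone (1 member called), the replicate block (1 member called, 44.0 ± 8.90 nt, adjusted p = 0.013) and without siCtl library 21 of 24 h; leaving out a library gave 0 to 1 calls. The sign differed from the reported one in 104 values, none of them called. Abundance was below 0 for 7 to 9 of 10 members at 48 h and 8 or 9 at 24 h under every alternative. The added split by run gave a difference of 41.9 nt in the larger and 21.9 nt in the smaller run for Eif3g, beside 42.7 nt in all, and 35.1 nt in reads starting in the first 100 nt. For the Eif3h share under 30 nt these were 4.06, 2.69 and 2.59 percentage points at 48 h, beside 3.30, and 2.62 beside 1.82 at 24 h for the reads starting in the first 100 nt.

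Counts of genes called over the whole table were small and moved. The share under 30 nt gave 0 genes at 24 h, and 1 with all quality tags, 2 on log2 odds and 3 with a limit of 40 nt; it gave 1 at 48 h, and 6 with barcode confidence of at least 0.9, 4 by transcript, 3 with at least 100 reads, 2 with a limit of 40 nt and 0 with times alone or the quasi-binomial model. The difference between times gave 1, and 2 with barcode confidence of at least 0.9 and 0 with the quasi-binomial model, log2 odds or 40 nt. The median tail gave 1 at 24 h, and 0 with all quality tags, barcode confidence of at least 0.9 or times alone, 2 with at least 100 reads, 5 on mean log2 tails and 10 with the replicate block; at 48 h it gave 0, and 1 with times alone or the block, which was Eif3g. Abundance gave 0 at 24 h, and 3 with all quality tags, 2 by transcript, 21 without a filter and 23 with the block; at 48 h it gave 2, and 0 with barcode confidence of at least 0.9, times alone or log2(RPM + 1), 1 by transcript or with at least 100 reads, 5 with median-of-ratios factors, 23 without a filter and 14 with the block; between times it gave 0, and 8 with the block and 2 without a filter. Leaving out 1 library at a time, the counts ranged over 0 to 19 (24 h), 1 to 189 (48 h) and 1 to 166 (between times) for the share under 30 nt, 2 to 8, 0 to 0 and 0 to 1 for 30 to 90 nt, 0 to 7, 0 to 1 and 0 to 0 for the median, and 0 to 8, 0 to 6 and 0 to 0 for abundance. The highest counts came where 48 h was left with a single siLarp1 or siCtl library, assumed to vary like the others. The causes were not tested. Tails under 30 nt rest on few reads per member, and 2 libraries per group at 48 h limit every comparison.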
